A study of Mus musculus with 8 samples.

Results

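Paneth cells (PCs) sit at the base of the small intestinal crypts, next to the gut bacteria, and release antimicrobial peptides. Described are 10 genes in PC transcriptomes: the peptidoglycan sensors Nod1 and Nod2 with their kinase Ripk2, the inflammasome sensor Nlrp6, the Toll-like receptors Tlr1, Tlr3, Tlr4 and Tlr5, and the adaptors Myd88 and Ticam1. They were chosen by name as receptors and adaptors for microbial patterns, and all 10 were found among the 55414 genes of the count table through their Ensembl identifiers. The questions were which of them have reads in PCs and whether their levels differed between mice on zinc and mice on plain water.

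The 8 libraries came from C57BL/6J mice, the strain given in the study's methods; age and sex were not given in the sources used here. In the water group, 4 mice drank ultrapure Milli-Q water for 7 days, and in the zinc group 4 mice drank water with 25 mM ZnSO4 for the same time. Every mouse of both groups was then injected with TNF, a cytokine that drives inflammation, and PCs were sorted from the small intestine 3 hours later. No library was labelled as from a mouse without TNF, so no level below can be set against one before TNF.

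Pattern receptors bind molecules that microbes share. NOD1 and NOD2 sense fragments of the bacterial cell wall in the cytosol and signal through the kinase RIPK2 to NF-kB, and NOD2 is long known for its high expression in PCs. Toll-like receptors sense lipoproteins, lipopolysaccharide and flagellin at the surface or nucleic acids in endosomes, and pass the signal on through the adaptors MyD88 or TRIF (gene Ticam1), while NLRP6 is a cytosolic sensor of the intestinal epithelium that can assemble inflammasomes.

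The libraries held between 10623658 and 15101627 counts, and 10707 genes passed the expression filter. The PC markers, among them Lyz1 and the alpha-defensins Defa24 and Defa30, summed to between 392437 and 735086 CPM (counts in each 1e6 of a library size scaled by the TMM method). Immune cells carry pattern receptors too, and their markers other than Lyz2 were close to absent. Lyz2 had 187 to 346 reads per library (13.1 to 27.4 CPM), and which cells these reads came from was not tested. The 18 leukocyte markers other than Lyz2 held between 1 and 21 reads in all per library, and 12 stromal and endothelial markers held between 0 and 5, with 8 of 19 and 10 of 12 of the listed genes at 0 in every library. Zinc replicate 3 stood apart from the other 7 libraries. Its 20 TNF and NF-kB target genes summed to 148 CPM, against 1697 to 1992 CPM in the others. Among them Icam1 and Cxcl10 had 0 reads in it, against 87.1 to 149 and 9.84 to 45.5 CPM elsewhere. Its label gives TNF as for the other mice, and whether this mouse responded to or received TNF was not tested. Its 22 interferon-stimulated genes summed to 51.6 CPM (others 247 to 356), and its 12 enterocyte markers summed to 842 CPM (others 339 to 466), while its PC marker sum of 470430 CPM lay within the range of the others. Of the 9 PC markers, Sox9 was lowest in it at 91.9 CPM (others 176 to 238) and Pnliprp2 highest at 4004 CPM (others 2339 to 3533). The remaining PC markers were within range. The sums of goblet cell markers (13146 CPM, others 11507 to 17133) and of enteroendocrine and tuft cell markers (36.7 CPM, others 22.2 to 47.6) were within range too, but single markers were not. Of 10 goblet cell markers 4 were highest in it, among them Fcgbp at 1270 CPM (others 59.8 to 318), and the 4 tuft cell markers Dclk1, Trpm5, Pou2f3 and Avil were all highest in it, with Dclk1 at 5.05 CPM (others 0.369 to 2.94). The part of these differences in the results was not tested, and the fold changes and ratios below are therefore given with and without this library.

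Most of the receptors and adaptors were measured in the sorted PC libraries, and the surface receptors Tlr1 and Tlr4 were close to absent. The same libraries held enterocyte markers (sums of 339 to 842 CPM) and crypt stem cell markers (sums of 458 to 1123 CPM). Goblet cell markers were present too, as given above. Which cells the reads of each receptor came from was not tested. At least 10 reads in every library were found for 6 of the 10 genes (17% of all genes in the table reached this), namely Nod1, Ripk2, Tlr3, Myd88, Ticam1 and Nlrp6. Nod2 missed this limit in zinc replicate 3 alone, and Tlr5 missed it in water replicate 3 alone. Tlr1 had 29 reads in all 8 libraries together and Tlr4 had 33, and each had 0 reads in at least 1 library.

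Levels were compared between genes per length, as CPM per kilobase of the union of annotated exons, with the mean and SD over the 8 libraries. Myd88 was highest at 18.3 ± 6.58 CPM per kilobase (SD, n = 8), followed by Ticam1 at 8.78 ± 1.67 and Tlr3 at 7.71 ± 2.94. Myd88 exceeded Ticam1 in 7 of 8 libraries, zinc replicate 3 being the exception, whereas Ticam1 and Tlr3 did not differ beyond their spread, since Tlr3 was the higher in water replicates 1 and 2. Ripk2 came next at 3.45 ± 1.57 CPM per kilobase, below Tlr3 and above Nod2 in 8 of 8 libraries.

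Nod2 had 1.90 ± 0.797 CPM per kilobase, Nlrp6 1.20 ± 1.05 and Nod1 1.12 ± 0.136. These 3 neighbours were not fully separated: Nod2 exceeded Nlrp6 in 7 of 8 libraries with a wide spread in their ratio, and Nlrp6 exceeded Nod1 only in zinc replicates 1, 2 and 3. Without zinc replicate 3, or without zinc replicate 1, Nod1 took the place above Nlrp6. Nod1 stood above Tlr5, at 0.283 ± 0.232 CPM per kilobase, in every library. Tlr1 at 0.0920 ± 0.0694 and Tlr4 at 0.0472 ± 0.0505 CPM per kilobase came last, and neither Tlr5 and Tlr1 nor Tlr1 and Tlr4 differed beyond their spread. The added 0.1 was larger than the mean levels of Tlr1 and Tlr4, so these ratios depend on it.

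**Figure D1:**
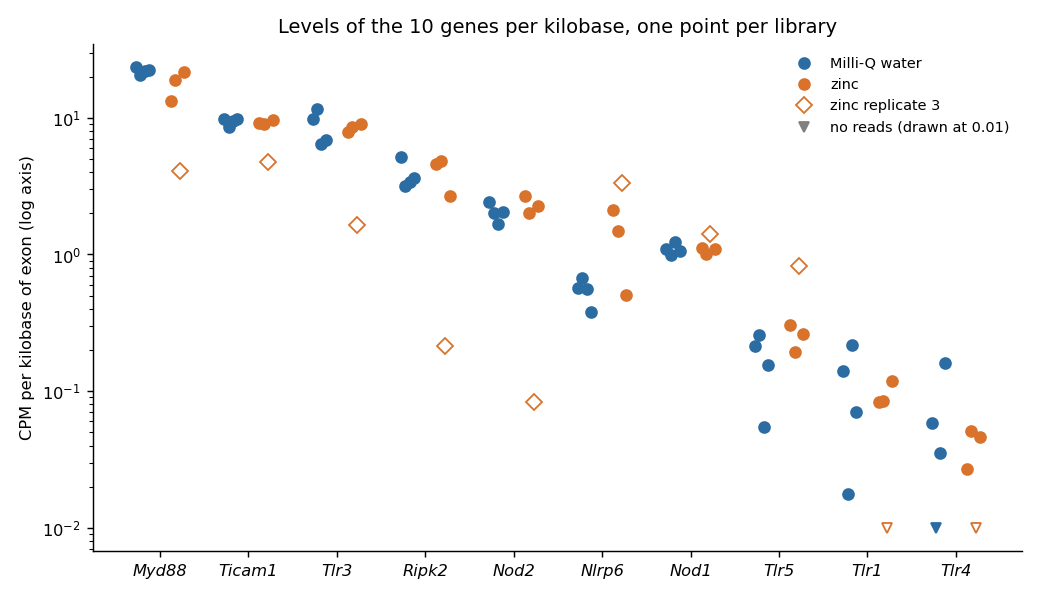
Level of each of the 10 genes in CPM per kilobase of exon (log axis), 1 point per library, with water and zinc libraries in different colours and zinc replicate 3 as an open diamond. Myd88, Ticam1 and Tlr3 have the highest means (18.3, 8.78 and 7.71) and Tlr1 and Tlr4 the lowest, and triangles at the bottom are libraries with no reads.

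Promoter sequences are shown for 4 members. Nod2 and Tlr3 were lowest in zinc replicate 3, and Myd88 and Nlrp6 had 3 of 4 zinc libraries below and above all water libraries, respectively. These traits do not single out the 4. Ripk2 and Ticam1 were also lowest in zinc replicate 3, and Tlr5 also had 3 of 4 zinc libraries above all water libraries. Each sequence shown is the 250 bases before the gene start, written 5′ to 3′ on the gene's strand, from RefSeq on GRCm38.p6 (entries were found for 8 of the 10 genes, not for Ripk2 and Tlr4), whose coordinates differ from the GRCm39 positions given with each gene. They lie at chr8:88647097-88647346 (Nod2, plus strand), chr8:45410381-45410630 (Tlr3, minus strand), chr9:119340019-119340268 (Myd88, minus strand) and chr7:140920652-140920901 (Nlrp6, plus strand). Capitals mark matches to 4 motifs searched on both strands: the kappa-B consensus of NF-kB, the interferon-regulated pattern of a GAAA followed by 2 free bases and another GAAA, the shorter AANNGAAA that overlaps it, and TGANTCA of AP-1.
Nod2: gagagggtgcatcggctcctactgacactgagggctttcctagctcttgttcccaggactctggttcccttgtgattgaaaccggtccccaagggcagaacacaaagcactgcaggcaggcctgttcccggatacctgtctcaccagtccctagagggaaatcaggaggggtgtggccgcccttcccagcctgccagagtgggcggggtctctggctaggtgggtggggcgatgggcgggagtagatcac
Tlr3: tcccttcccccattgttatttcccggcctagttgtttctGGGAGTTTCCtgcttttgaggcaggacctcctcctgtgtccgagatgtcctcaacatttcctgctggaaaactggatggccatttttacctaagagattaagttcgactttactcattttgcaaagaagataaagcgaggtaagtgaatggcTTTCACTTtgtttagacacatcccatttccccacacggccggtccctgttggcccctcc
Myd88: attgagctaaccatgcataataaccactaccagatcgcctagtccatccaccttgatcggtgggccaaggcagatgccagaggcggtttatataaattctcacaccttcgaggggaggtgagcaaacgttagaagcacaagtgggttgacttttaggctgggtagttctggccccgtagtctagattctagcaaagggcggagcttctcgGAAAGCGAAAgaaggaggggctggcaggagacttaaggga
Nlrp6: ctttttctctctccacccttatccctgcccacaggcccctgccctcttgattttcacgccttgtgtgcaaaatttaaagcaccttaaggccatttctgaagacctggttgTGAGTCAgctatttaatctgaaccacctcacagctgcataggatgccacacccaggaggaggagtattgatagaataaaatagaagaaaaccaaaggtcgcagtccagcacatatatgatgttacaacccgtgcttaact

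Tlr3 held a kappa-B match (found in 8.46% of 32851 promoter windows of 300 bases) and an AANNGAAA match on the opposite strand (23.9%). Myd88 held a match to the paired GAAA pattern (3.44%), with the shorter motif inside it. Nlrp6 held a TGANTCA match (7.81%), and Nod2 held no match to these letters in its window. Of the other members, Nod1 and the second window of Tlr1 held AANNGAAA, while Tlr5, Ticam1 and the first window of Tlr1 held none. A match is a description of the sequence only.

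Between zinc and water, none of the 10 genes passed the test. The filter kept 8 of them, leaving out Tlr1 and Tlr4, and 0 of the 8 had an adjusted p below 0.05 in edgeR's quasi-likelihood test with Benjamini-Hochberg adjustment, as was the case for all 10707 genes (0%). The adjusted p-values of the 8 ran from 0.485 to 0.893. At an unadjusted p below 0.05 there was 1 gene, Nlrp6, where 10.2% of all tested genes reached that level and 6.42% did so with a higher zinc level. DESeq2 also called 0 of the 10 (0.0213% of all its genes) and had 2 genes, Nlrp6 and Tlr5, below an unadjusted 0.05 (6.86% of all its genes). In limma-voom the counts were 0 and 1 (0% and 12.4% of all tested genes). In bulk RNA of sorted cells, fewer cells of a type and less RNA per cell cannot be told apart, and this holds for each difference below.

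**Figure D2:**
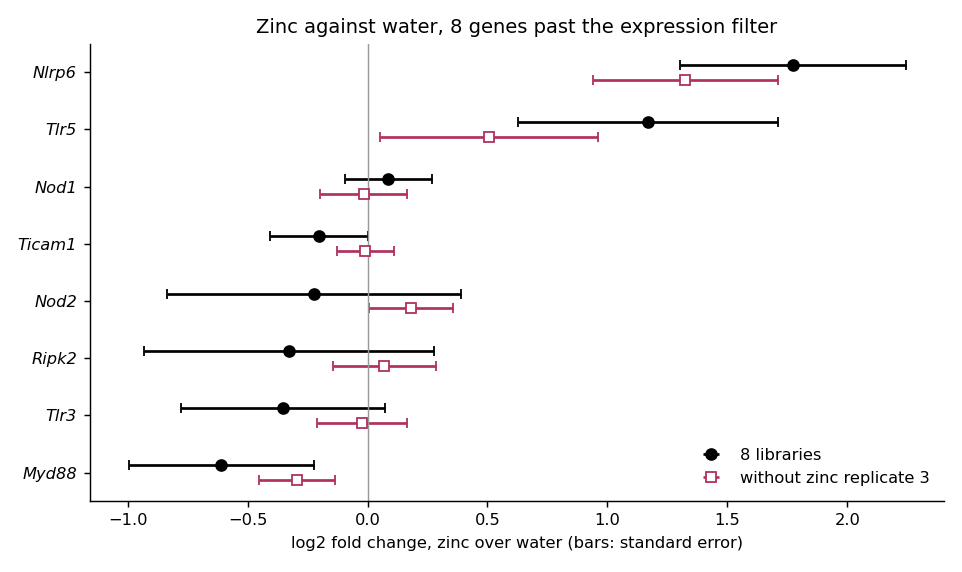
Log2 fold change of zinc over water (x axis) for the 8 genes past the expression filter, from edgeR; points are estimates and bars are standard errors, with all 8 libraries (filled circles) and without zinc replicate 3 (open squares). Nlrp6 and Tlr5 lie to the right of 0 and Myd88 to the left in both, while Nod1, Nod2 and Ripk2 change side when that library is left out.

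The NOD branch was represented by both receptors and the kinase. Nod1 (ENSMUSG00000038058, GRCm39 chr6:54900927-54949647, minus strand) detects a peptidoglycan fragment typical of Gram-negative bacteria. It had 6.50, 5.90, 7.26 and 6.24 CPM in water replicates 1 to 4, and 6.65, 5.95, 8.35 and 6.45 CPM in zinc replicates 1 to 4. The groups overlapped almost fully, with zinc replicate 3 the highest of the 8 libraries. The means were 6.47 ± 0.580 and 6.85 ± 1.04 CPM (SD, n = 4 each). The log2 fold change of zinc over water was 0.09 (SE 0.181), with an adjusted p of 0.853 in edgeR, and -0.02 (SE 0.183) without zinc replicate 3.

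Nod2 (ENSMUSG00000055994, chr8:89373943-89415102, plus strand) detects muramyl dipeptide, a unit of nearly all bacterial cell walls. It had 12.2, 10.1, 8.37 and 10.2 CPM in the water group and 13.5, 10.1, 0.421 and 11.4 CPM in the zinc group. The other 7 libraries formed 1 narrow range that held both groups, and zinc replicate 3, with 6 reads, lay far below it. The mean of the other 7 libraries, 10.8 CPM, was 25.7 times its value. The log2 fold change was -0.22 (SE 0.612, adjusted p = 0.893, edgeR) with this library and 0.18 (SE 0.173, adjusted p = 0.816) without it, so the sign of the estimate rested on 1 mouse.

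Ripk2 (ENSMUSG00000041135, chr4:16121400-16163796, minus strand) encodes the kinase that both NOD receptors recruit. Its levels were 30.4, 18.5, 19.7 and 21.3 CPM in the water group and 26.8, 28.0, 1.26 and 15.7 CPM in the zinc group. Of the 3 other zinc libraries, replicates 1 and 2 lay inside the water range and replicate 4 just below it, and zinc replicate 3 was again the lowest, with the mean of the other 7 libraries 18.1 times its value. The estimated log2 fold change was -0.33 (SE 0.604, adjusted p = 0.836, edgeR), and 0.07 (SE 0.215, adjusted p = 0.948) without it.

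The balance of the NOD receptors was read from the ratio of Nod2 to Nod1 within each library. The log2 ratio, per kilobase and with 0.1 added to each level, was 1.09, 0.94, 0.42 and 0.89 on water and 1.19, 0.94, -3.04 and 0.99 on zinc. Nod2 exceeded Nod1 in all libraries except zinc replicate 3, where the order was reversed and the Nod2 level was below the added 0.1, so that the size of this ratio depends on the added value. The mean ratio was 0.83 ± 0.291 on water and 0.02 ± 2.04 on zinc, which is a difference of -0.81 (exact two-sided permutation test, p = 0.857, n = 4 each). Without zinc replicate 3 the difference was 0.21 (exact permutation p = 0.343).

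Nlrp6 (ENSMUSG00000038745, chr7:140500815-140509105, plus strand), the inflammasome sensor whose promoter window held the TGANTCA match, gave the largest fold change among the 8 tested genes. It had 2.87, 3.39, 2.83 and 1.92 CPM in the water group and 10.7, 7.60, 17.0 and 2.58 CPM in the zinc group. Zinc replicates 1, 2 and 3 were above every water library, while zinc replicate 4 was inside the water range, so the groups overlapped. The means were 2.75 ± 0.613 and 9.46 ± 6.02 CPM (SD, n = 4 each). On the log2 scale the fold change was 1.77 (SE 0.469), with an unadjusted p of 0.00332 and an adjusted p of 0.485 in edgeR, and so failed the correction over all genes. It was 1.33 (SE 0.386, adjusted p = 0.50) without zinc replicate 3, and 2.08 (adjusted p = 0.0704) without zinc replicate 4. The 10 crypt stem cell markers summed to 1123, 813, 1109 and 522 CPM in zinc replicates 1 to 4 and to between 458 and 638 CPM on water, so the same 3 zinc libraries were above all water libraries. The 12 enterocyte markers summed to 466, 416, 842 and 353 CPM on zinc and to 339 to 390 CPM on water. Zinc replicates 1, 2 and 3 were again above all water libraries. The part of crypt stem cell and enterocyte markers in the Nlrp6 values was not tested.

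Among the Toll-like receptors, Tlr3 (ENSMUSG00000031639, chr8:45848702-45864117, minus strand), the endosomal receptor for double-stranded RNA, was the most abundant of the 4 per kilobase. Its levels were 52.3, 61.5, 34.3 and 36.7 CPM in the water group and 42.4, 45.9, 8.77 and 48.2 CPM in the zinc group. Zinc replicates 1, 2 and 4 lay in the middle of the water range, and zinc replicate 3 lay below all. The mean of the other 7 libraries was 5.23 times its level. In edgeR the log2 fold change was -0.35 (SE 0.425, adjusted p = 0.738), and -0.02 (SE 0.186, adjusted p = 0.984) without it.

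Tlr5 (ENSMUSG00000079164, chr1:182782311-182805500, plus strand), the flagellin receptor, was low. It had 21, 29, 3 and 13 reads on water and 22, 18, 79 and 22 reads on zinc, or 1.14 ± 0.588 and 2.67 ± 1.94 CPM (SD, n = 4 each). In CPM, 3 of the 4 zinc libraries exceeded every water library and zinc replicate 2 did not. Zinc replicate 3, at 5.54 CPM, was 4.00 times the mean of the other 7. The log2 fold change was 1.17 (SE 0.541, adjusted p = 0.485, edgeR) and went to 0.51 (SE 0.455, adjusted p = 0.805) without that library.

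Tlr1 (ENSMUSG00000044827, chr5:65082022-65090941, minus strand), which pairs with TLR2 for lipoproteins, had 7, 1, 6 and 3 reads on water and 3, 4, 0 and 5 reads on zinc. Tlr4 (ENSMUSG00000039005, chr4:66745783-66849936, plus strand), the lipopolysaccharide receptor, had 6, 0, 2 and 14 reads on water and 2, 5, 0 and 4 reads on zinc. A count of 0 in zinc replicate 3 allows up to 0.211 CPM by counting error alone (3 reads), and 0 for Tlr4 in water replicate 2 allows up to 0.179 CPM. Whether a difference between the groups could be detected from so few reads was not tested for either gene. Neither passed the expression filter, and neither was called in edgeR without a filter or in DESeq2 on all genes.

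Of the adaptors, Myd88 had the highest mean per kilobase of the 10 genes, and Ticam1 stood beside Tlr3. Myd88 (ENSMUSG00000032508, chr9:119165000-119170486, minus strand) serves all Toll-like receptors apart from TLR3. It had 91.4, 79.3, 85.9 and 87.1 CPM in the water group and 51.2, 73.7, 15.9 and 84.4 CPM in the zinc group. The water libraries lay close together, zinc replicates 1, 2 and 3 were below all of them, and zinc replicate 4 was among them. Zinc replicates 1, 2 and 3 were also above all water libraries in the crypt stem cell and enterocyte marker sums given with Nlrp6. The part of these markers in the Myd88 values was not tested. The means were 85.9 ± 5.0 and 56.3 ± 30.3 CPM (SD, n = 4 each), and the zinc mean without replicate 3 was 69.8 ± 17.0 CPM (SD, n = 3). The estimated log2 fold change was -0.61 (SE 0.386, adjusted p = 0.540, edgeR) with all libraries and -0.29 (SE 0.157, adjusted p = 0.666) without that one.

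Ticam1 (ENSMUSG00000047123, chr17:56576319-56583786, minus strand) encodes TRIF, the adaptor of TLR3 and of endosomal TLR4. It had 29.1, 25.5, 28.2 and 29.5 CPM in the water group and 27.5, 26.9, 14.3 and 29.0 CPM in the zinc group. The other 7 libraries were within a narrow band, and zinc replicate 3 was below it, with the mean of the others 1.95 times its level. On the log2 scale the fold change was -0.20 (SE 0.205, adjusted p = 0.684, edgeR) and -0.01 (SE 0.119, adjusted p = 0.989) without it.

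**Figure D3:**
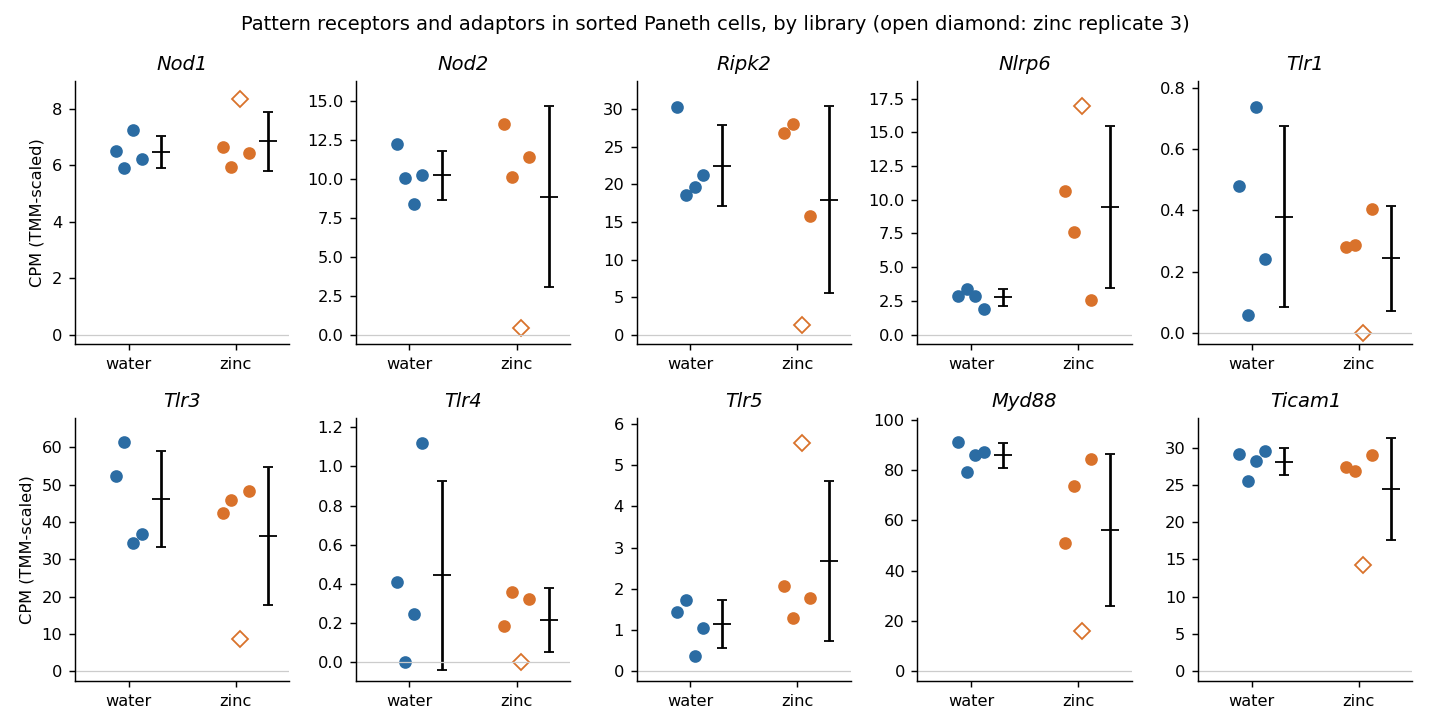
CPM of each of the 10 genes (y axis, own scale per panel) in the 4 water and 4 zinc libraries; points are libraries, the open diamond is zinc replicate 3, and the crosses beside them are group means with SD. Zinc replicate 3 is the lowest point for Nod2 (0.421 CPM), Ripk2, Tlr3, Myd88 and Ticam1 and the highest for Nod1, Tlr5 and Nlrp6 (17.0 CPM).

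The balance of the adaptors was read from the ratio of Ticam1 to Myd88 within each library. The log2 ratio, per kilobase and with 0.1 added, was -1.26, -1.25, -1.22 and -1.18 on water, and -0.52, -1.07, 0.22 and -1.15 on zinc. All 4 zinc libraries were above all 4 water libraries, by a small margin in zinc replicate 4. The mean was -1.23 ± 0.0379 on water and -0.63 ± 0.632 on zinc, which is a difference of 0.60. The exact two-sided permutation test gave p = 0.0286, the smallest that 4 against 4 allows, and p = 0.0571 after adjustment over the 2 ratios tested, which does not pass. Without zinc replicate 3 the difference was 0.31, with an exact permutation p of 0.0571, the smallest that 4 against 3 allows. The part of the crypt stem cell and enterocyte markers, whose sums are given with Nlrp6, in this ratio was not tested. Acaa1a, a peroxisomal thiolase gene on the opposite strand, shares 628 exon bases with Myd88 and had 33.1 CPM in zinc replicate 3 against 14.5 to 25.8 CPM elsewhere. It was not stated whether reads were counted by strand, and without strand the reads of that stretch could not be assigned. Nod2, Ripk2, Tlr3 and Tlr4 likewise share 113 to 688 exon bases with long noncoding RNA genes on the opposite strand; of these, Parail (beside Ripk2) had 18 reads in all libraries and Gm45542 (beside Tlr3) had 0.

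**Figure D4:**
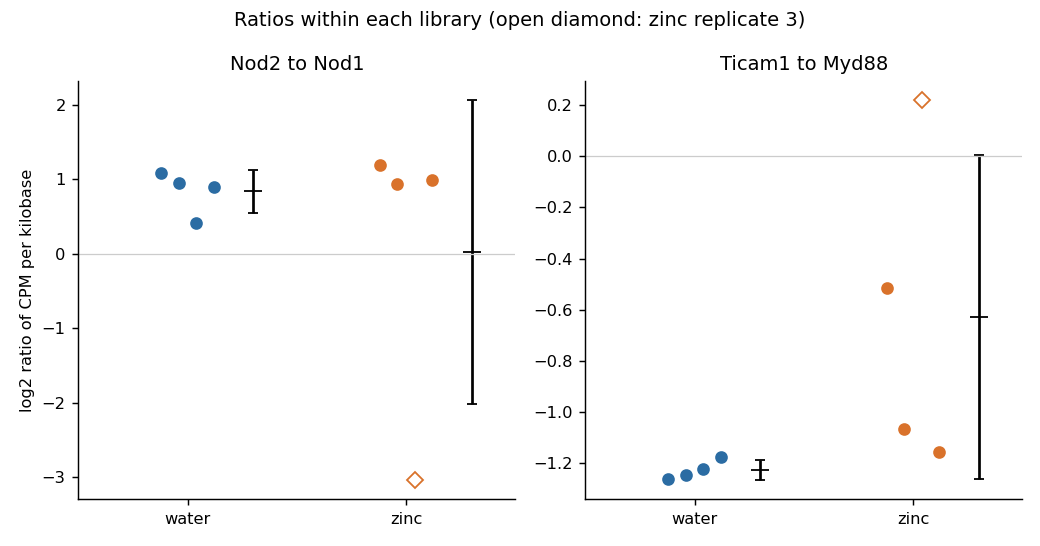
Log2 ratio of Nod2 to Nod1 (left) and of Ticam1 to Myd88 (right), from CPM per kilobase, in each library; points are libraries, the open diamond is zinc replicate 3, and the crosses are group means with SD. In the right panel the 4 zinc libraries, from -1.15 to 0.22, all lie above the 4 water libraries, from -1.26 to -1.18.

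Zinc replicate 3 was thus at one end of the 8 libraries for each of the 8 tested genes. It was the lowest for 5 of them, Nod2, Ripk2, Tlr3, Myd88 and Ticam1, where 30% of all tested genes were lowest in it. It was the highest for 3, Nod1, Tlr5 and Nlrp6, where 29.8% of all tested genes were highest in it. No member had groups that did not overlap (5.87% of all tested genes had), nor did any without this library (7.87%). The median log2 fold change over the 8 genes was -0.21, against 0.01 over all tested genes, and it was 0.03 without zinc replicate 3, against 0.00.

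Among members that were lowest in zinc replicate 3, likeness over the libraries rested on that library. Over 8 libraries, Pearson's r of log2 CPM was 0.98 for Nod2 with Ripk2, 0.98 for Nod2 with Ticam1 and 0.96 for Myd88 with Ticam1. Over the 7 libraries without zinc replicate 3 these were 0.41, 0.14 and 0.40. Myd88 with Nlrp6 was at -0.85 over 8 libraries and -0.89 over 7. The latter was the largest r in size among all pairs of tested members over 7 libraries, so a high value is set by that choice. Nod2 with Tlr5 was at -0.65 over 8 libraries and 0.82 over 7. The points of each correlation share their libraries and depth, so these values are descriptions.

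Among 5916 genes with a mean of at least 10 CPM, the profile closest to Ripk2 was that of Ube2d1, a ubiquitin-conjugating enzyme gene, both over 8 libraries (r = 0.996) and over 7 (r = 0.961). The closest to Nlrp6 was Oxa1l, a mitochondrial membrane insertase gene, in both cases too (r = 0.991 and 0.986). Each r is the highest among 5916 genes over 7 or 8 libraries, so a high value is set by that choice. The 7 libraries are part of the 8, so the same gene in both is not an independent result. For the other members the nearest gene changed with the libraries used. Over 8 libraries, Nod2 was nearest to Arhgap8 (r = 0.996), Nod1 to Taldo1 (0.975), Tlr3 to Mgat4a (0.993), Tlr5 to Tbc1d16 (0.984), Myd88 to Epcam (0.998) and Ticam1 to Zhx2 (0.991). Over 7 libraries, Nod1 was nearest to Uspl1 (r = 0.967), Tlr3 to Afg3l1 (0.990), Tlr5 to Igsf8 (0.994), Myd88 to Fam118b (0.990) and Ticam1 to Ass1 (0.926).

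The wider pathways were read from 8 lists of 102 genes. Of these, 73 were tested and edgeR called 0 in either direction (0% of all tested genes). In edgeR 8 reached an unadjusted p below 0.05 (10.2% of all tested genes did). DESeq2, which tested 86 of the list genes, and limma-voom also called 0 (0.0213% and 0% of all their genes). Each had 9 below an unadjusted 0.05 (6.86% and 12.4% of all their genes). The estimate was below 0 for 53 and above 0 for 20 (49.2% of all tested genes were below 0), with a median log2 fold change of -0.17, and -0.04 without zinc replicate 3. That library was the lowest of the 8 for 42 of the 73 genes (30% of all tested genes) and the highest for 6 (29.8% of all tested genes).

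Of the other Toll-like receptors, 6 of 8 listed genes, among them Tlr7, the receptor for single-stranded RNA, had 0 reads in all libraries. Tlr2, the lipoprotein receptor and partner of TLR1 and TLR6, was abundant, at 10.3 ± 4.19 CPM per kilobase (SD, n = 8). It had 71.6, 59.2, 72.7 and 63.6 CPM in the water group and 64.1, 61.2, 1.12 and 61.5 CPM in the zinc group. Zinc replicate 3 alone lay outside a band shared by both groups, and the log2 fold change was -0.51 (adjusted p = 0.781, edgeR), or -0.10 without it. Tlr6 was low, at 1.69 ± 0.975 CPM (SD, n = 4) on water and 1.26 ± 0.873 CPM (SD, n = 4) on zinc, and had 0 reads in zinc replicate 3. Its log2 fold change was -0.41 (adjusted p = 0.838, edgeR), or 0.04 without that library.

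The co-receptors and chaperones of Toll-like receptors had 7 of 13 genes tested, 2 above and 5 below 0, with a median of -0.40 (-0.11 without zinc replicate 3). The kinases and ligases had all 20 genes tested, with 7 above and 13 below 0 and a median of -0.10 (0.06). Ikbkb, the catalytic kinase of NF-kB activation, had 22.2 ± 1.32 CPM (SD, n = 4) on water and 16.6 ± 3.71 CPM (SD, n = 4) on zinc and was below every water library in 4 of 4 zinc libraries (3.12% of all tested genes had such a separation downward), with a log2 fold change of -0.42 that failed correction (adjusted p = 0.485, edgeR) and was -0.27 without zinc replicate 3. Peli2, an E3 ligase, had a log2 fold change of 0.73 (adjusted p = 0.485) that went to 0.24 without zinc replicate 3, and Tab1, a partner of the kinase TAK1, had 0.37 (adjusted p = 0.503), or 0.25 without that library.

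Partners of the NOD receptors had 13 of 17 genes tested, 4 above and 9 below 0, with a median of -0.10 (0.02 without zinc replicate 3). The negative regulators had 8 of 10 tested, 1 above and 7 below 0, with a median of -0.21 (-0.05). Of the 8, 7 were lowest in zinc replicate 3 (30% of all tested genes were). Cytosolic nucleic acid sensors had 8 of 9 tested, 3 above and 5 below 0, with a median of -0.22 (-0.06).

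The other NOD-like receptors had 8 of 15 genes tested, 1 above and 7 below 0, with a median of -0.25 (-0.14 without zinc replicate 3). Nlrc4, which assembles the inflammasome for flagellin, stood at 18.9 ± 3.69 CPM per kilobase (SD, n = 8), beside the 18.3 of Myd88 on the same scale. It had 104, 96.8, 113 and 102 CPM in the water group and 84.0, 79.6, 56.1 and 96.2 CPM in the zinc group. All 4 zinc libraries of Nlrc4 were thus below all 4 water libraries (3.12% of all tested genes had such a separation). In edgeR the log2 fold change was -0.40 (adjusted p = 0.485) and -0.26 without zinc replicate 3. Naip2, a sensor that feeds Nlrc4, had 58.1 ± 1.39 CPM (SD, n = 4) on water and 55.5 ± 6.74 CPM (SD, n = 4) on zinc, with a log2 fold change of -0.07, or -0.04 without zinc replicate 3. Naip1 had a log2 fold change of 1.23 (adjusted p = 0.485), or 1.07 without zinc replicate 3, on 7 to 46 reads per library. The Naip genes are related copies, and how the counting divided any shared reads was not given, so their values are uncertain.

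Nlrx1, a mitochondrial NOD-like protein, had a log2 fold change of -0.50 (adjusted p = 0.553, edgeR), which was -0.22 without zinc replicate 3. Nlrc5, the activator of major histocompatibility class I genes, had 1.60 ± 0.877 CPM (SD, n = 4) on water and 0.534 ± 0.193 CPM (SD, n = 4) on zinc. Its log2 fold change was -1.53 (adjusted p = 0.485, edgeR), and -1.47 without zinc replicate 3. These estimates rest on only 3 to 35 reads per library.

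The inflammasome partners had 7 of 10 genes tested, 2 above and 5 below 0, with a median of -0.36 (-0.04 without zinc replicate 3). Aim2, a cytosolic DNA sensor, had 3.35, 2.20, 1.85 and 3.84 CPM in the water group and 0.375, 1.43, 1.19 and 1.29 CPM in the zinc group. All 4 zinc libraries were below all 4 water libraries (3.12% of all tested genes had such a separation), and zinc replicate 1, not replicate 3, was the lowest. Like Ikbkb and Nlrc4, Aim2 was named for its small unadjusted p, which favours such a separation. The log2 fold change was -1.37 (SE 0.419), with an unadjusted p of 0.00794 and an adjusted p of 0.485 in edgeR, and it was -1.41 without zinc replicate 3. These Aim2 estimates rest on only 4 to 49 reads per library. Pycard, which encodes the adaptor ASC through which NLRP6 and AIM2 recruit caspases, had a log2 fold change of 0.76 (adjusted p = 0.502), with zinc replicate 3 the highest library at 20.4 CPM and zinc replicate 4 the lowest at 3.95 CPM. Its log2 fold change was 0.41 without zinc replicate 3 and 1.05 without zinc replicate 4. Over the 8 libraries Pycard and Nlrp6 both had zinc replicates 1, 2 and 3 above all water libraries and zinc replicate 4 within or below them. The enterocyte and crypt stem cell marker sums given with Nlrp6 had zinc replicates 1, 2 and 3 above all water libraries too. Their part in the Pycard values was not tested, and the share of all genes with this pattern was not counted.

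**Figure D5:**
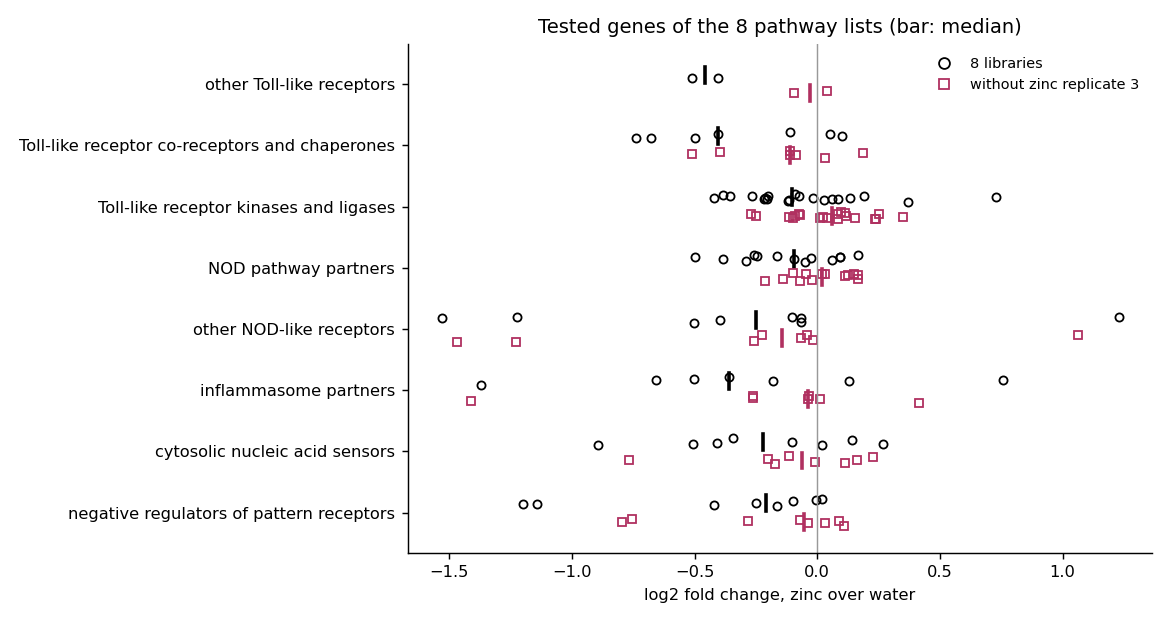
Log2 fold change of zinc over water (x axis) of the tested genes in each of the 8 pathway lists, 1 point per gene, with the list median as a bar, from edgeR with all 8 libraries and without zinc replicate 3. With all libraries the list medians run from -0.46 to -0.10, and without that library they run from -0.14 to 0.06.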

How the data were processed

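Bulk RNA-seq was performed on FACS-sorted PCs of 8 mice, 4 per group, 1 library per mouse. Libraries were prepared with a stranded mRNA kit. The deposited table holds raw counts, the whole numbers of reads the authors assigned to each Ensembl identifier. The submitters' processing notes name FastQC 0.12.0, STAR 2.7.10a, DESeq2 and the mm39 genome; their roles, the counter, the annotation release, strand use and the rule for reads with several matches are not given in the sources used here. Samples were grouped by their labels, and all were used.

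Identifiers were matched to GENCODE M39 (GRCm39) for symbols, positions and exon lengths: 54749 of 55414 matched, and the 665 others held 0.00443% of counts. Counts were tested in R 4.3.3 with edgeR 4.0.16 (TMM factors, default expression filter, quasi-likelihood F-test, group as the only term, Benjamini-Hochberg adjustment over 10707 genes, threshold 0.05). Totals of 10623658 to 15101627 put 3 reads at 0.179 to 0.369 CPM, and intervals and limits cover counting error only. Between the 28 library pairs the chi-square per degree of freedom was at least 6.05, so no pair of libraries agreed within sampling noise. Ratios used an exact permutation test (scipy 1.17.1). DESeq2 1.42.0 and limma 3.58.1 (voom with sample weights), other scalings, filters and a length correction were alternatives, as was leaving out each library. One alternative left out water replicates 3 and 4, which earlier results had set apart by transcript length. Correlations between same-numbered water and zinc libraries ran from -0.0208 to 0.0293, so no pairing by number was seen in expression. The labels do not say what the numbers stand for. The procedure was tested on simulated data.

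The 10 genes, the gene lists and the tests were chosen with earlier results of these data known. Named genes were all 10 members, the 4 list genes of smallest unadjusted p in each direction, the 3 other Toll-like and the 3 other NOD-like receptors with the most reads, and the nearest profile of each tested member, of which 1 is not reported here.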

Additional observations from a re-analysis of the deposited data

Results flagged for a closer look

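Of 24 sets of 4 values, for the 10 genes and 2 ratios in each group, 3 had 1 library so far from the others that the gap exceeded Dixon's 95% critical value for 4 samples. Chance flags about 1 in 20 groups, or 1.2 of 24, and each of the 3 was zinc replicate 3. Its Tlr3 level was 8.77 CPM, against 42.4 to 48.2 CPM in the other zinc libraries. Its Ticam1 level was 14.3 CPM, against 26.9 to 29.0 CPM. Its log2 ratio of Nod2 to Nod1 was -3.04, against 0.94 to 1.19.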

How the results depend on the processing

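None of the 8 genes past the filter was called under any of the 19 alternatives, nor were Tlr1 and Tlr4 in the 2 that tested them (edgeR without a filter and DESeq2 on all genes); the lowest adjusted p was 0.0704 (edgeR), for Nlrp6 without zinc replicate 4. Over all genes DESeq2 called 2 on the filtered table and 4 on all genes with a count, where edgeR called 0. Of 152 alternative fold changes of the members, 148 kept their sign. The others were Nod1 in limma-voom (-0.0049) and Nod1, Nod2 and Ripk2 without zinc replicate 3. With 1 library left out, the log2 fold change ran from -0.017 to 0.15 for Nod1, from -0.49 to 0.18 for Nod2, from -0.64 to 0.070 for Ripk2 and from -0.69 to 0.039 for Tlr6, which was 0.01 without water replicate 3. The number with 10 reads in every library was 6 to 7 when 1 library was left out, 7 at 5 reads and 5 at 20 reads. With the longest transcript as length, 6 of 10 genes kept their place (Tlr3 passed Ticam1 and Nod1 passed Nlrp6), and 8 to 10 did with 1 library left out. The Nod2 to Nod1 difference ran from -1.20 to 0.21 with 1 library left out, the sign turning without zinc replicate 3. The Ticam1 to Myd88 difference of 0.60 had p = 0.125 (n = 4 pairs) in a replicate block (exact sign-flip test), the smallest that 4 pairs allow. It was 0.62 (exact p = 0.133) without water replicates 3 and 4, and 0.31 to 0.77 with 1 library left out (exact p = 0.0571 each time, the smallest possible). No pairing by replicate number was seen in expression: 0 of 4 water libraries correlated best with the zinc library of their own number, and edgeR with the replicate block called 0 genes. Depth limits what can be said of Tlr1, Tlr4 and Tlr5.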
